A study of Mus musculus with 45 samples.

Results

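The Cyp2c family is a set of cytochrome P450 genes that lie side by side on mouse chromosome 19. The 9 members described here, Cyp2c29, Cyp2c37, Cyp2c38, Cyp2c39, Cyp2c40, Cyp2c50, Cyp2c54, Cyp2c69 and Cyp2c70, were taken by name from a table of 24946 usable genes, and all 9 were measurable in liver. Whole-liver RNA of wild-type mice had been sequenced in 45 libraries from a diet model of alcohol-associated liver disease. Mice at peak injury had taken Lieber-DeCarli ethanol diet or control diet for 6 weeks. Early resolution livers came 3 days, and late resolution livers 2 weeks, after ethanol-fed mice were put back on the control diet, the ethanol period again having lasted 6 weeks. Libraries carry a stage, a diet label and a sex label, which gives 12 groups. These are ethanol-labelled males, control-labelled males, ethanol-labelled females and control-labelled females at each stage. Males and females in these group names are so by label only. At resolution the ethanol label therefore marks mice that were on control diet when the liver was taken, and the labels do not say more about how the control-labelled mice of those stages were fed. The labels give neither age nor strain. There were 4 libraries in 9 groups and 3 in the others, namely ethanol-labelled females at early resolution and both ethanol-labelled groups at late resolution. Libraries are called by their labels, as in late control female 1. The labels do not say that replicates are separate animals, so the p-values below measure the spread between libraries.

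Transcripts of the sex chromosomes went with the diet label and not with the sex label, which bears on every comparison below. Xist, the X-inactivation RNA of female cells (chrX:103460366-103483254, GRCm38), was above the Y-linked Eif2s3y (chrY:1010543-1028847) in 21 of 21 ethanol-labelled libraries, at 13.7 to 51.8 TPM. Eif2s3y was above Xist in 23 of 24 control-labelled libraries, at 7.83 to 12.7 TPM. Ddx3y, another Y-linked gene, was at most 0.0125 TPM in the ethanol-labelled libraries and between 1.98 and 6.18 TPM in those 23. Late control female 1 was the exception among controls, with 39.5 TPM of Xist and 0 TPM of Eif2s3y and Ddx3y. The sex label was at odds with these transcripts in 22 of 45 libraries, 11 of 23 male-labelled and 11 of 22 female-labelled. They were all libraries labelled ethanol and male, and all labelled control and female except late control female 1. Diet label and sex-chromosome state therefore cannot be told apart at peak and early resolution, and at late resolution they come apart in that 1 library. Whether diet and sex labels were exchanged for some libraries was not tested, so a difference given by diet label may be one of sex, and a difference given by sex label one of diet. At peak and early resolution, a male-labelled and a female-labelled library of the same diet label had the same sex-chromosome transcripts. Groups are used as labelled, and values without late control female 1 are given where it decides a result.

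Cyp2c enzymes are monooxygenases of the endoplasmic reticulum of hepatocytes. They take electrons from the reductase Por and oxidise drugs, steroids and fatty acids, and several of them turn arachidonic acid into epoxides that act as vascular and anti-inflammatory signals. Their genes are read under hepatocyte factors such as HNF4 and under the xenobiotic receptors CAR and PXR, and in rodents some members follow the sex-specific rhythm of growth hormone. Cyp2c40 and Cyp2c69 are known as female-biased genes of mouse liver. Cyp2c70 stands apart, since it makes the muricholic acids that distinguish mouse bile from human bile.

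The 9 genes span 918 kb, from base 39269405 to base 40187333 of chromosome 19 (GENCODE M21, GRCm38), and each has 9 exons. In chromosome order, Cyp2c29 lies at chr19:39269405-39330713 on the plus strand, Cyp2c38 at chr19:39389556-39463075 on the minus strand and Cyp2c39 at chr19:39510862-39568529 on the plus strand. Cyp2c40 (chr19:39767071-39812814) and Cyp2c69 (chr19:39842814-39886799) are neighbours on the minus strand, next to Cyp2c67 and Cyp2c68. Cyp2c37 (chr19:39992424-40012243) and Cyp2c50 (chr19:40089688-40113950) are on the plus strand with Cyp2c54 (chr19:40037940-40073827, minus strand) between them, and Cyp2c70 (chr19:40153353-40187333, minus strand) closes the cluster.

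The copies are close enough for reads to be shared, so a member's value can hold reads of its neighbours. Coding identity was 97.7% between Cyp2c69 and Cyp2c67, 92.4% between Cyp2c40 and Cyp2c69, 96.1% between Cyp2c37 and Cyp2c50, 95.2% between Cyp2c50 and Cyp2c54 and 94.2% between Cyp2c38 and Cyp2c39. Of all 100-base stretches of the annotated transcript, 44.1% for Cyp2c40 and 36.3% for Cyp2c69 were found unchanged in another Cyp2c gene. The share was 9.40% for Cyp2c50, 7.59% for Cyp2c54 and 4.70% for Cyp2c37, and 0 for Cyp2c29, Cyp2c38, Cyp2c39 and Cyp2c70. Of 50-base stretches the share was 72.1% for Cyp2c40, 54.8% for Cyp2c69, 30.7% for Cyp2c50, 30.1% for Cyp2c37, 25.7% for Cyp2c54, 11.4% for Cyp2c39, 7.45% for Cyp2c38, 2.08% for Cyp2c29 and 0 for Cyp2c70. Read length is not given in the sources used here. Levels and differences of the members other than Cyp2c70 are uncertain to the extent that reads were shared. Cyp2c40 and Cyp2c69 each shared the most stretches with the other, so they may not be separate measurements. No source used here says how the authors' counting divided shared reads.

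**Figure D1:**
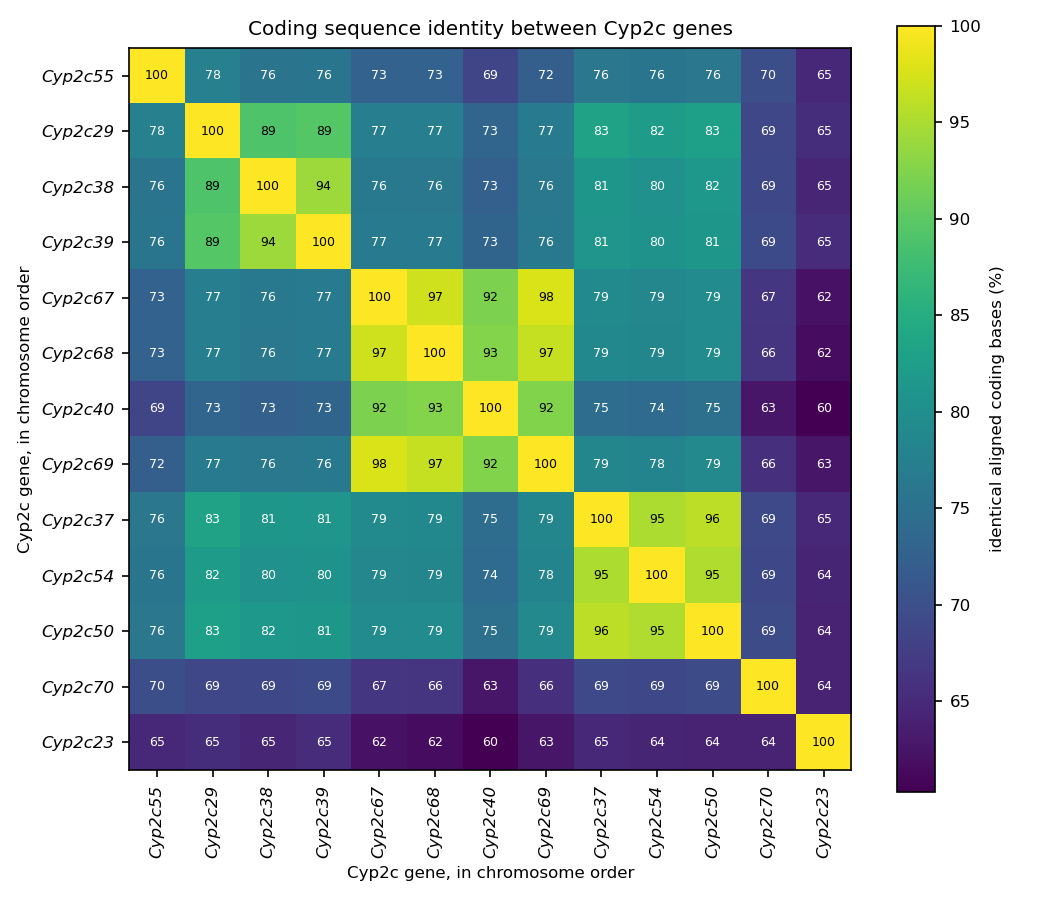
Coding-sequence identity between Cyp2c genes, in percent, as a heat map with the genes in chromosome order on both axes. Cyp2c67, Cyp2c68, Cyp2c40 and Cyp2c69 form one block, with 97.7% between Cyp2c69 and Cyp2c67, and Cyp2c37, Cyp2c54 and Cyp2c50 form another, with 95.1% to 96.1%.

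Promoters are shown for the neighbours that differ most by diet label, Cyp2c40 and Cyp2c69, for their close copy Cyp2c67, which did not pass the test, and for Cyp2c37 and Cyp2c50, which are near-identical in coding sequence but differed in opposite directions by diet label. Each is 300 bases long, from 250 before to 50 after the RefSeq start (GRCm38.p6), printed 5′ to 3′ on the gene's own strand. Capitals mark matches on either strand to ATTGAT, a motif of HNF6 and CUX2, and to CAAAGNNCA, a motif of HNF4. Coordinates are chr19:39812765-39813064 on the minus strand for Cyp2c40, chr19:39886720-39887019 on the minus strand for Cyp2c69 and chr19:39648993-39649292 on the minus strand for Cyp2c67. Those of Cyp2c37 and Cyp2c50 are chr19:39992174-39992473 and chr19:40089429-40089728, both on the plus strand.
Cyp2c40: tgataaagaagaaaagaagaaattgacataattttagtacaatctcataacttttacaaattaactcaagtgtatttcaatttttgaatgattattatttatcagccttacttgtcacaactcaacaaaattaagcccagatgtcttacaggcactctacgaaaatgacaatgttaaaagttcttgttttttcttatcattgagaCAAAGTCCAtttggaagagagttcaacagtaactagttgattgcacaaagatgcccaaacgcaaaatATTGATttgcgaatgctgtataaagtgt
Cyp2c69: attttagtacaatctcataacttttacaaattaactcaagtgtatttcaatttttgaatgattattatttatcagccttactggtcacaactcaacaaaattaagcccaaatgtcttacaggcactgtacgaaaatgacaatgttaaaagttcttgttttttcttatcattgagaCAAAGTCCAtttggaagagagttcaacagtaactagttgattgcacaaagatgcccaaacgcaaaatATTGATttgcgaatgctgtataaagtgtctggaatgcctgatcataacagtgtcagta
Cyp2c67: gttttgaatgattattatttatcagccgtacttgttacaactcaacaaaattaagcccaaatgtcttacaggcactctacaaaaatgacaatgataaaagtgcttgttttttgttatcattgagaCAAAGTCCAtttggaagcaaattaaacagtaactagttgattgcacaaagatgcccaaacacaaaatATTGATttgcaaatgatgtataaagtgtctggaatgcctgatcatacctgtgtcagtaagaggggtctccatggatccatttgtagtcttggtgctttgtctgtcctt
Cyp2c37: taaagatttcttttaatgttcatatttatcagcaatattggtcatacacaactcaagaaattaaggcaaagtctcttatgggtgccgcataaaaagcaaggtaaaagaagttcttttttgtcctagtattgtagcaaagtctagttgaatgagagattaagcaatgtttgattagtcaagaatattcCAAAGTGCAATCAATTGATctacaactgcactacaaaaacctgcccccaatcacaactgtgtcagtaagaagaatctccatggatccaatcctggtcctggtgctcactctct
Cyp2c50: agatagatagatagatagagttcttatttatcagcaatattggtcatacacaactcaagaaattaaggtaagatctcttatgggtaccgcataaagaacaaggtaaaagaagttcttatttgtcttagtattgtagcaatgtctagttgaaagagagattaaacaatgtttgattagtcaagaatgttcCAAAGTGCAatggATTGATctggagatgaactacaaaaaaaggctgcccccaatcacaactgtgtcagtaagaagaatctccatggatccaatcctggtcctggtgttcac

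The Cyp2c40 and Cyp2c69 promoters were 98.9% identical over the 270 bases in which they overlap, against 92.8% over 250 bases for Cyp2c67 and Cyp2c69 and 88.3% over 299 bases for Cyp2c37 and Cyp2c50. All of these hold both motifs. ATTGAT starts at position 22 in Cyp2c40, -8 in Cyp2c69, -58 in Cyp2c67 and -48 in Cyp2c50 relative to the RefSeq start, and Cyp2c37 holds overlapping matches at -54 and -50. CAAAGNNCA starts at -45 in Cyp2c40, -75 in Cyp2c69, -125 in Cyp2c67, -63 in Cyp2c37 and -61 in Cyp2c50. The annotated starts of Cyp2c40 and Cyp2c69 differ, so the same stretch falls at different positions. RefSeq entries were found for 8 members, and Cyp2c54 had none. Cyp2c39 has an entry at each of its RefSeq starts, which makes 9 promoters in all. Its window at chr19:39347096-39347395 lies between Cyp2c29 and Cyp2c38, outside the Cyp2c39 coordinates given above, and its AGGTCA match is counted below. Of these 9 promoters, 5 held CAAAGNNCA, against 6.36% of all 32851 RefSeq promoters, and 4 held ATTGAT, against 7.54%. TATAAA was found in 6 (13.6% of all) and AGGTCA, a nuclear receptor half-site, in 3 (16.3%), while TTCNNNGAA, the STAT5 motif, was found in 0 (8.30%). A match is only a run of letters in the window, not a bound site, and members that are copies of each other share their matches.

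Cyp2c29 had the highest mean level over the 45 libraries, 552 TPM, and Cyp2c39 the lowest, 5.32 TPM. TPM, a relative abundance, is a level per length, so different genes can be set side by side. The order of the means was Cyp2c29, Cyp2c50 (500.4 TPM), Cyp2c70 (364), Cyp2c37 (321), Cyp2c69 (192), Cyp2c40 (159.9), Cyp2c54 (83.2), Cyp2c38 (19.3) and Cyp2c39. Neighbours in this order were often exchanged from library to library. Cyp2c29 was above Cyp2c50 in 25 of 45 libraries, Cyp2c70 above Cyp2c37 in 25, Cyp2c69 above Cyp2c40 in 15 and Cyp2c40 above Cyp2c54 in 22. Cyp2c38 was above Cyp2c39 in 45 of 45. At peak the leading member went with the labels. It was Cyp2c70 in all 4 ethanol-labelled males, Cyp2c50 in all 4 control-labelled males, and Cyp2c29 in all 8 female-labelled libraries.

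**Figure D2:**
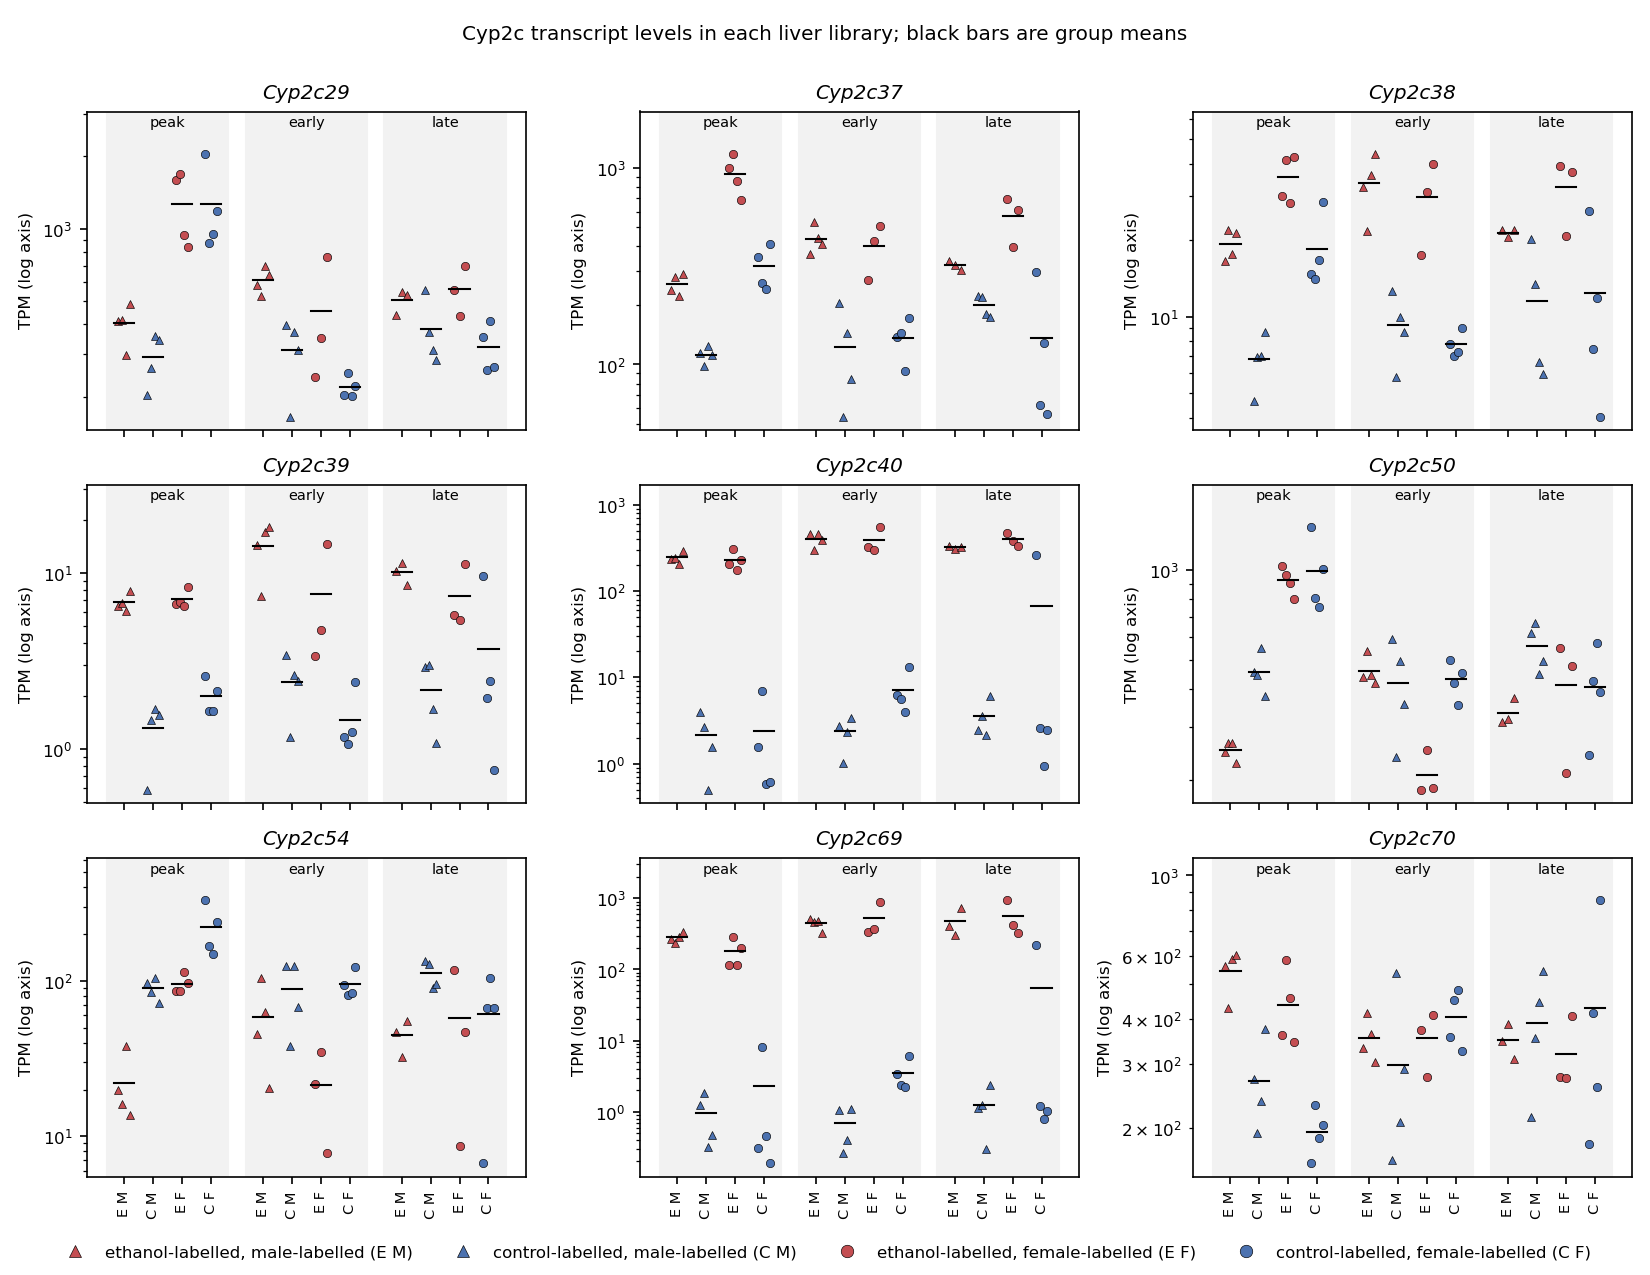
Level of each Cyp2c member in every library, in TPM on a log axis that differs between panels, with peak, early and late resolution from left to right. Triangles are male-labelled and circles female-labelled libraries, red is ethanol-labelled and blue control-labelled, and black bars are group means. In control-labelled libraries except late control female 1, Cyp2c40 is at most 13.1 TPM and Cyp2c69 at most 8.18 TPM. Cyp2c29 and Cyp2c50 are higher in female-labelled than in male-labelled libraries at peak.

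The family as a whole made up 0.104% to 0.514% of all transcript. Summed over the 9 members, the level at peak was 2036 ± 168 TPM in ethanol-labelled males, 1234 ± 131 in control-labelled males, 4112 ± 847 in ethanol-labelled females and 3016 ± 935 in control-labelled females (mean ± SD, n = 4 each). At early resolution it was 2819 ± 183 TPM (n = 4) in ethanol-labelled males, 1258 ± 212 (n = 4) in control-labelled males, 2395 ± 852 (n = 3) in ethanol-labelled females and 1308 ± 56.7 (n = 4) in control-labelled females. The late resolution sums were 2393 ± 243 TPM (n = 3) in ethanol-labelled males, 1661 ± 135 (n = 4) in control-labelled males, 2927 ± 753 (n = 3) in ethanol-labelled females and 1495 ± 179.6 (n = 4) in control-labelled females. The make-up of the sum differed as well. Cyp2c40 and Cyp2c69 made up 12.1% and 13.9% of it in ethanol-labelled males at peak. By group mean, Cyp2c40 made up 0.09% in control-labelled females of that stage and 0.18% in control-labelled males. Cyp2c50 made up 12.4% in ethanol-labelled males and 37.4% in control-labelled males.

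**Figure D3:**
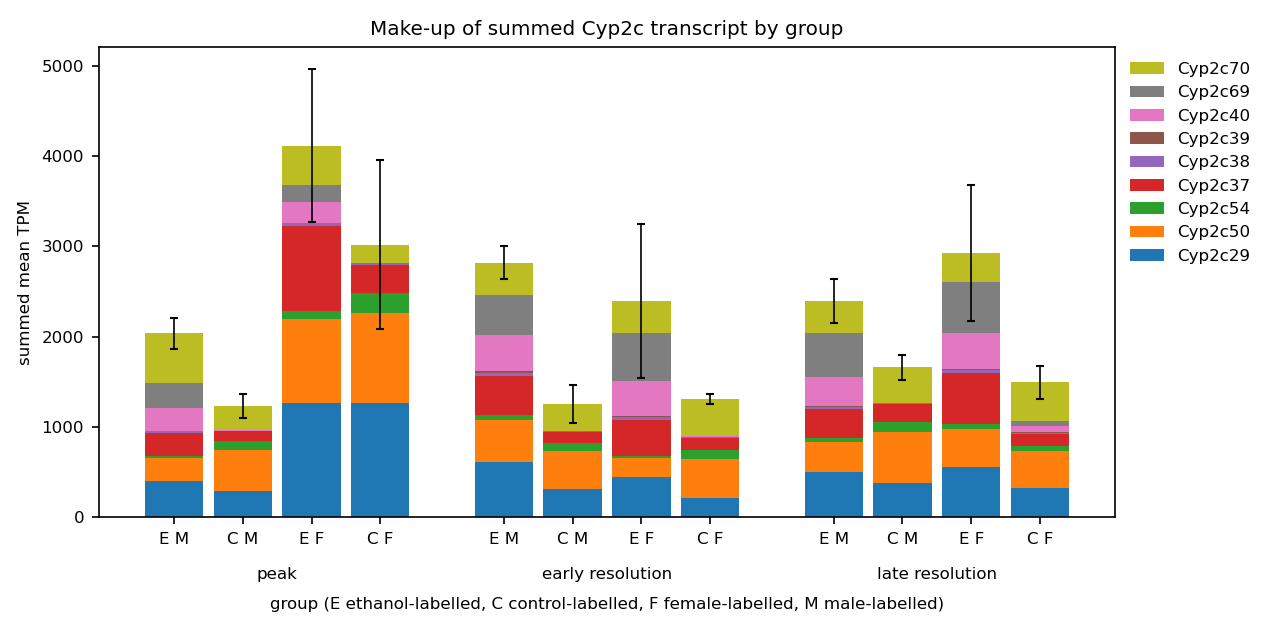
Summed TPM of the 9 Cyp2c members in each group, as stacked group means, with the SD of the sum over libraries as the error bar. Bars are grouped by peak, early and late resolution. Cyp2c40 and Cyp2c69 are visible layers in ethanol-labelled groups and, through late control female 1, in the late control-labelled females.

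At peak injury, 6 of the 9 members were higher and 2 lower in ethanol-labelled than in control-labelled libraries. Cyp2c40 and Cyp2c69, the female-biased pair, differed most, by over 100-fold. Cyp2c39, Cyp2c37, Cyp2c38 and Cyp2c70 were also higher, Cyp2c54 and Cyp2c50 were lower, and Cyp2c29 did not pass the test. The test was limma on log2(TPM + 0.5) over 11244 genes, averaged over the sex labels, and a gene counts as called at a Benjamini-Hochberg adjusted p under 0.05. Of all genes tested, 27.1% were called in this comparison, 17.3% higher and 9.81% lower. The median log2 difference was 1.21 over the members and 0.05 over all genes. With libraries scaled by median-of-ratios, which sets the median of all genes near 0, the same numbers of members were called, against 15% of genes higher and 20.7% lower. Log2 differences on this scale understate the change of genes near 0.5 TPM.

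Cyp2c40, an arachidonic acid hydroxylase in mouse, stood at 239, 245, 209 and 292 TPM in ethanol-labelled males, against 3.93, 2.63, 0.491 and 1.57 TPM in control-labelled males. Its levels were 206, 309, 176 and 232 TPM in ethanol-labelled females and 1.57, 6.90, 0.588 and 0.606 TPM in control-labelled females. Every ethanol-labelled library was above every control-labelled one, and the sex labels did not separate. The difference was 6.75 ± 0.57 on the log2 scale (SE; limma adjusted p = 2.4e-11), a 108-fold higher level. Cyp2c69 stood at 272, 236, 289 and 341 TPM in ethanol-labelled males, against 1.24, 1.85, 0.318 and 0.474 TPM in control-labelled males. In female-labelled libraries it stood at 116, 288, 117 and 199 TPM with the ethanol label and 0.306, 8.18, 0.461 and 0.188 TPM with the control label. These groups did not overlap either, and the log2 difference was 7.28 ± 0.63 (SE; limma adjusted p = 3.2e-11), or 155-fold. Of the control-labelled libraries, peak control female 2 had the highest level of both genes. Because Xist and the Y-linked transcripts separated the same libraries, diet label and sex-chromosome state cannot be told apart here.

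Cyp2c39, which hydroxylates retinoic acid in mouse, was the least abundant member. It stood at 6.5, 6.71, 6.03 and 7.83 TPM in ethanol-labelled males, against 0.580, 1.46, 1.68 and 1.55 TPM in control-labelled males. Female-labelled libraries had 6.66, 6.83, 6.46 and 8.26 TPM with the ethanol label and 2.57, 1.63, 1.63 and 2.12 TPM with the control label. All 8 ethanol-labelled libraries were above all 8 control-labelled ones, by 1.83 ± 0.29 on the log2 scale (SE; limma adjusted p = 7.9e-06). Cyp2c39, Cyp2c40 and Cyp2c69 were the 3 members whose diet groups did not overlap at peak, which held for 3.31% of all genes tested.

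Cyp2c37, a CAR target that oxidises arachidonic acid, stood at 240.2, 277, 222 and 288 TPM in ethanol-labelled males, against 115, 98.3, 124 and 112 TPM in control-labelled males. Female-labelled libraries had 999.8, 1182, 856 and 691 TPM with the ethanol label and 353, 259, 241 and 411 TPM with the control label. Within each sex label the diet groups did not overlap, but the control-labelled females overlapped the ethanol-labelled males. Its log2 difference by diet label was 1.38 ± 0.24 (SE; limma adjusted p = 4.3e-05). Cyp2c38, an arachidonic acid epoxygenase, ranged over 16.6 to 42.7 TPM with a median of 25.0 in ethanol-labelled libraries and over 4.66 to 28.3 TPM with a median of 11.4 in control-labelled ones. Its difference was 1.21 ± 0.25 (SE; limma adjusted p = 0.00048), and the groups did not overlap in male-labelled libraries but did in female-labelled ones. Both genes were higher in 8 of 8 ethanol-labelled libraries than the control mean of the same sex label.

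Cyp2c54 and Cyp2c50, epoxygenases next to Cyp2c37, were lower with the ethanol label. Cyp2c54 stood at 19.9, 16.1, 38.3 and 13.7 TPM in ethanol-labelled males, against 96.2, 85.1, 104 and 72.1 TPM in control-labelled males. Female-labelled libraries had 85.4, 86.0, 114 and 96.3 TPM with the ethanol label and 331, 168, 148 and 239 TPM with the control label. Within each sex label every ethanol-labelled library was below every control-labelled one, and the log2 difference was -1.62 ± 0.42 (SE; limma adjusted p = 0.0041). Cyp2c50 stood at 248, 265, 265 and 227 TPM in ethanol-labelled males, against 457, 447, 552 and 382 TPM in control-labelled males. In female-labelled libraries it was 1033, 962, 908 and 802 TPM with the ethanol label and 1399, 808, 756 and 1014 TPM with the control label. The groups were apart in male-labelled libraries and overlapped in female-labelled ones. Over both, the log2 difference was -0.46 ± 0.17 (SE; limma adjusted p = 0.045), a call that was lost without the filter on low genes (limma adjusted p = 0.062) and when any of 12 single libraries was left out.

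Cyp2c70, the muricholic acid enzyme, stood at 563, 429, 589 and 601 TPM in ethanol-labelled males, against 273, 194, 238 and 376 TPM in control-labelled males. Female-labelled libraries had 362, 583, 459 and 347 TPM with the ethanol label and 159.5, 232, 187 and 203 TPM with the control label. The diet groups did not overlap within either sex label, and the log2 difference was 1.09 ± 0.23 (SE; limma adjusted p = 0.00044). Cyp2c29, an epoxygenase and CAR target, stood at 412, 417, 299 and 488 TPM in ethanol-labelled males, against 203, 262, 358 and 344 TPM in control-labelled males. Its female-labelled levels were 1597, 1684, 942 and 842 TPM with the ethanol label and 2054, 868, 951 and 1182 TPM with the control label. These groups overlapped within both sex labels, and the difference of 0.25 ± 0.21 did not pass the test (SE; limma adjusted p = 0.39; 95% interval -0.17 to 0.68). Counted by overlap, 8 members were apart by diet label in male-labelled libraries, against 29.5% of all genes, and 6 in female-labelled ones, against 13%.

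**Figure D4:**
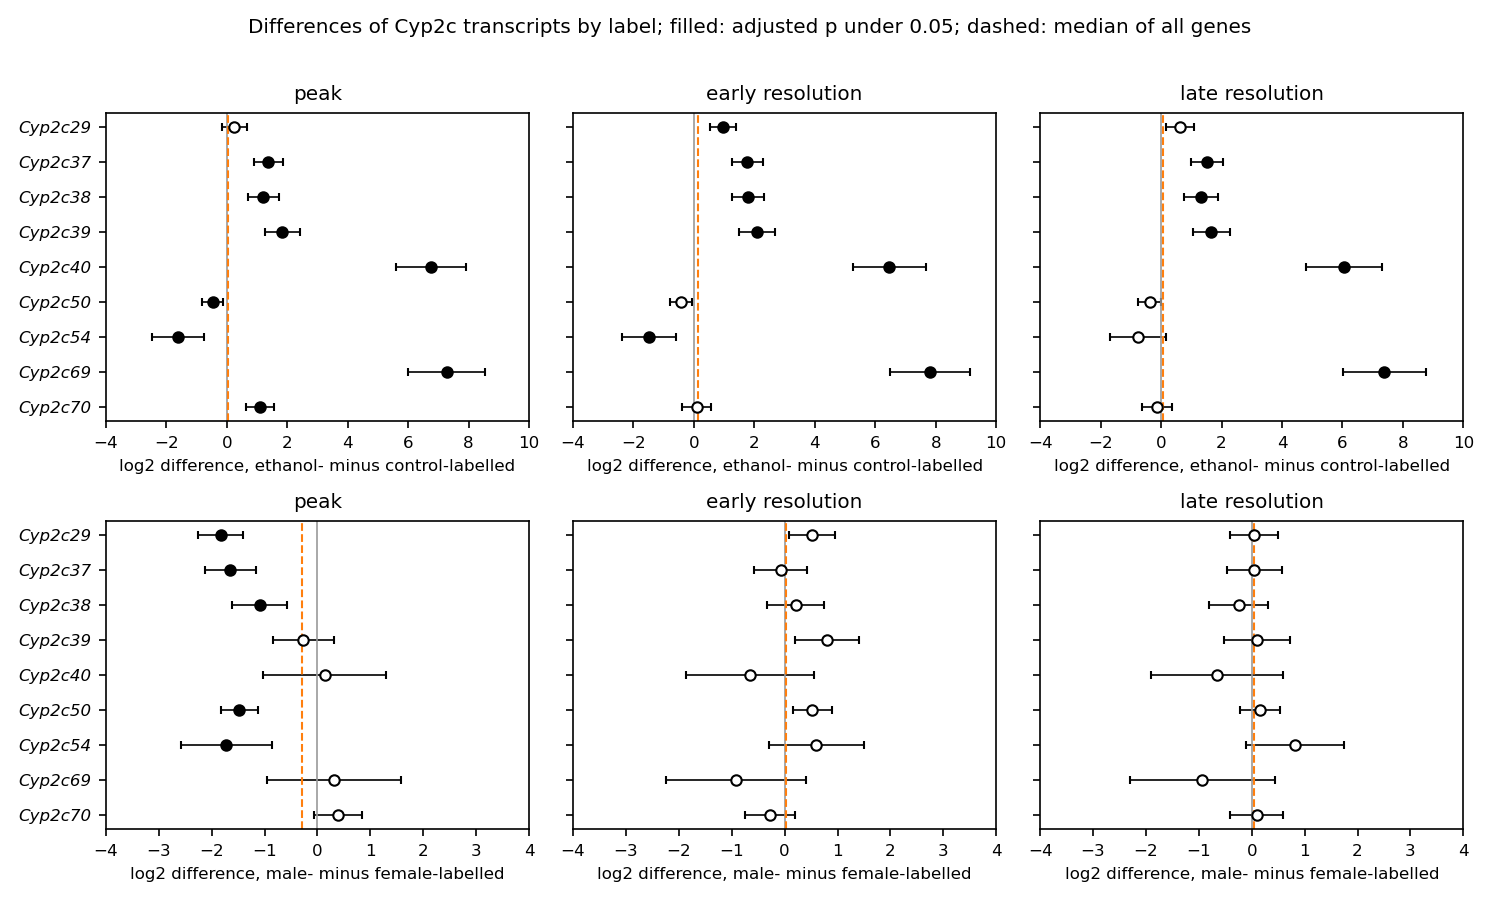
Log2 differences of the 9 Cyp2c members at peak, early and late resolution, with 95% intervals as lines. The upper row gives ethanol-labelled minus control-labelled and the lower row male-labelled minus female-labelled libraries. Filled points have a limma adjusted p under 0.05, and the dashed line is the median of all genes tested. Cyp2c40 and Cyp2c69 lie between 6.04 and 7.80 in the upper row at all stages, and in the lower row 5 members lie between -1.83 and -1.09 with filled points at peak and none is filled later.

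At early resolution, 6 members were higher and 1 lower with the ethanol label, with Cyp2c29 among the higher ones and Cyp2c70 within the spread. Of all genes 16.7% were called, 14.3% higher and 2.46% lower. The median log2 difference was 1.77 over the members and 0.13 over all genes. Since the all-gene median was shifted, values after median-of-ratios scaling are given too. Scaling added Cyp2c50 to the lower members, so 6 were higher and 2 lower, against 7.62% and 9.12% of all genes. Without early control male 2, which had the lowest Cyp2c29, Cyp2c37 and family sum of all libraries, 2 members were also called lower as deposited.

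Cyp2c40 stood at 459, 298, 455 and 391 TPM in ethanol-labelled males, against 2.77, 1.02, 2.34 and 3.37 TPM in control-labelled males. In female-labelled libraries it was 321, 301 and 558 TPM with the ethanol label and 6.21, 5.61, 3.93 and 13.1 TPM with the control label. The diet groups did not overlap (log2 difference 6.46 ± 0.60, SE; limma adjusted p = 2.2e-10; 6.29 after scaling). Cyp2c69 followed the same order, with 510.2, 468, 482 and 329 TPM in ethanol-labelled males, against 1.05, 0.260, 0.400 and 1.09 TPM in control-labelled males. Its female-labelled levels were 341, 372 and 874 TPM with the ethanol label and 3.34, 2.41, 2.25 and 6.05 TPM with the control label (log2 difference 7.80 ± 0.65, SE; limma adjusted p = 3.1e-11; 7.63 after scaling). Within the control-labelled libraries, both genes were lower in every male-labelled than in every female-labelled one, a separation found for 6.45% of all genes, but the differences did not pass the test (limma adjusted p = 0.62 and 0.55).

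Cyp2c37 was 366, 532, 439 and 409 TPM in ethanol-labelled males, against 206, 54.0, 145 and 84.3 TPM in control-labelled males. Female-labelled libraries had 271, 423 and 508 TPM with the ethanol label and 138, 144, 92.3 and 173 TPM with the control label. Cyp2c37, Cyp2c38, Cyp2c40 and Cyp2c69 were the 4 members whose diet groups did not overlap at this stage, against 2.73% of all genes. On the log2 scale the difference was 1.77 ± 0.25 for Cyp2c37 (SE; limma adjusted p = 2.3e-06; 1.58 after scaling) and 1.80 ± 0.26 for Cyp2c38 (SE; limma adjusted p = 4.8e-06; 1.62 after scaling). Cyp2c38 ranged over 17.5 to 44.0 TPM with a median of 32.5 in ethanol-labelled and over 5.77 to 12.7 TPM with a median of 8.25 in control-labelled libraries. Cyp2c39 ranged over 3.38 to 18.2 TPM with a median of 14.4 in ethanol-labelled and over 1.06 to 3.42 TPM with a median of 1.82 in control-labelled libraries, and these ranges overlapped slightly. Its log2 difference was 2.08 ± 0.30 (SE; limma adjusted p = 2.9e-06; 1.91 after scaling).

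Cyp2c29 was 583, 523, 699 and 644 TPM in ethanol-labelled males, against 399, 164, 370.1 and 314 TPM in control-labelled males. Female-labelled libraries had 241, 350.4 and 766 TPM with the ethanol label and 203, 249.6, 202 and 221 TPM with the control label. The groups were apart in male-labelled libraries, and early ethanol female 1 overlapped the controls in female-labelled ones. Its log2 difference was 0.96 ± 0.22 (SE; limma adjusted p = 0.002; 0.78 after scaling). Cyp2c54 was 45.3, 105, 63.2 and 20.5 TPM in ethanol-labelled males, against 125, 38.3, 124 and 67.6 TPM in control-labelled males, which overlapped. In female-labelled libraries, 21.7, 34.9 and 7.85 TPM with the ethanol label lay below 93.6, 81.3, 83.0 and 122 TPM with the control label. The joint difference was -1.50 ± 0.44 (SE; limma adjusted p = 0.017; -1.67 after scaling), and without early ethanol female 3 it was -1.21 (limma adjusted p = 0.081).

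Cyp2c50, tested like all members within each sex label, passed by diet label in female-labelled libraries at this stage. It was 184, 250.2 and 187 TPM in ethanol-labelled females, all below the 501, 420.4, 355 and 454 TPM of control-labelled females (log2 difference -1.06 ± 0.27, SE; limma adjusted p = 0.013). Male-labelled libraries had 440.0, 539, 446 and 419 TPM with the ethanol label and 591, 237, 499 and 357 TPM with the control label, which overlapped (0.21 ± 0.25, SE; limma adjusted p = 0.65). The difference between the sex labels did not itself pass the test over all genes (1.27 ± 0.36, SE; limma adjusted p = 0.76). Averaged over the sex labels, the diet difference of Cyp2c50 was -0.43 (95% interval -0.80 to -0.06), which did not pass as deposited. In male-labelled libraries it was -0.86 at peak (95% interval -1.36 to -0.36) and -0.73 at late resolution (95% interval -1.26 to -0.19). The female-labelled values were -0.06 and -0.03. The late value in male-labelled libraries did not pass the test by limma. Dependence of the Cyp2c50 diet difference on the sex label did not pass at any stage. Cyp2c70 ranged over 277 to 416 TPM with a median of 365 in ethanol-labelled and over 163 to 537 TPM with a median of 341 in control-labelled libraries. Its difference was 0.10 ± 0.24 (SE; limma adjusted p = 0.84; -0.09 after scaling; 95% interval -0.38 to 0.58).

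At late resolution, 5 members were higher and none lower with the ethanol label by limma, against 8.82% and 3.98% of all genes (12.8% in either direction). At an unadjusted p under 0.05, 6 were higher and 0 lower. No share of all genes is given at that threshold, so the shares above do not apply to this count. Late control female 1, the control library with Xist and without Y-linked transcripts, had 266 TPM of Cyp2c40 and 219 TPM of Cyp2c69. Both values lay far above the other control-labelled libraries of this stage and below every ethanol-labelled one. The median log2 difference was 1.32 over the members and 0.05 over all genes. Cyp2c40, Cyp2c69, Cyp2c39, Cyp2c37 and Cyp2c38 were the higher members, and Cyp2c29 joined them after scaling (6 higher, 0 lower, against 8.56% and 12.5% of all genes).

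Cyp2c40 was 331, 306 and 327 TPM in ethanol-labelled males, against 2.47, 3.53, 2.16 and 6.04 TPM in control-labelled males. Female-labelled libraries had 476, 385 and 337 TPM with the ethanol label and 266, 2.58, 0.943 and 2.45 TPM with the control label. Even late control female 1 lay below every ethanol-labelled library. The log2 difference was 6.04 ± 0.62 (SE; limma adjusted p = 3.9e-09), and 6.90 without that library. Cyp2c69 was 412, 308 and 742 TPM in ethanol-labelled males, against 1.13, 1.25, 0.300 and 2.34 TPM in control-labelled males. In female-labelled libraries it was 949.9, 422 and 328 TPM with the ethanol label and 219, 1.19, 0.798 and 1.03 TPM with the control label. Its groups did not overlap, and the difference was 7.38 ± 0.68 (SE; limma adjusted p = 4.3e-10), or 8.28 without late control female 1.

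Cyp2c37 was 336, 319.6 and 302 TPM in ethanol-labelled males, against 224, 222, 181 and 175 TPM in control-labelled males. Female-labelled libraries had 694, 397 and 611 TPM with the ethanol label and 297, 62.1, 128 and 56.3 TPM with the control label. Cyp2c37, Cyp2c40 and Cyp2c69 were the 3 members without overlap between the diet groups, against 0.738% of all genes. Cyp2c37 differed by 1.52 ± 0.26 on the log2 scale (SE; limma adjusted p = 7.9e-05). Cyp2c39 and Cyp2c38 overlapped between the groups, in each case through late control female 1. Cyp2c39 ranged over 5.36 to 11.3 TPM with a median of 9.37 in ethanol-labelled and over 0.759 to 9.54 TPM with a median of 2.19 in control-labelled libraries (log2 difference 1.67 ± 0.31, SE; limma adjusted p = 0.00025). Cyp2c38 ranged over 20.6 to 39.5 TPM with a median of 21.9 in ethanol-labelled and over 4.02 to 26.2 TPM with a median of 9.67 in control-labelled libraries (log2 difference 1.32 ± 0.27, SE; limma adjusted p = 0.001).

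The remaining members did not pass the test with all libraries. Cyp2c54 was 46.8, 32.2 and 55.4 TPM in ethanol-labelled males, all below the 135, 128, 90.1 and 95.3 TPM of control-labelled males. Female-labelled libraries had 117, 8.63 and 46.5 TPM with the ethanol label and 6.70, 67.3, 104 and 66.6 TPM with the control label, where late control female 1 had the lowest Cyp2c54 of all 45 libraries. On the log2 scale the difference was -0.77 ± 0.46 (SE; limma adjusted p = 0.27), and -1.20 without that library (limma adjusted p = 0.028). Cyp2c29 had a difference of 0.63 ± 0.23 (SE; limma adjusted p = 0.06), which was 0.54 after scaling (limma adjusted p = 0.044) and 0.65 without late control female 1 (limma adjusted p = 0.048). It passed when any of 3 single libraries was left out, and the largest value with a library left out was 0.73, without late control male 1. Levels of Cyp2c29 ranged over 434 to 702 TPM with a median of 538 in ethanol-labelled and over 257 to 553 TPM with a median of 333 in control-labelled libraries. Cyp2c50 differed by -0.38 ± 0.19 (SE; limma adjusted p = 0.18) and Cyp2c70 by -0.14 ± 0.25 (SE; limma adjusted p = 0.74), with 95% intervals of -0.76 to 0.00 and -0.64 to 0.36. Cyp2c70 was highest of all libraries in late control female 4, at 856 TPM.

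Between stages, the diet difference itself changed for 1 member. Cyp2c70 was higher with the ethanol label at peak and not at late resolution, and its diet difference at late resolution minus that at peak was -1.23 ± 0.33 (SE; limma adjusted p = 0.032). That call was lost without the filter on low genes (limma adjusted p = 0.055) and when any of 9 libraries was left out, and the value was -1.40 without late control female 1 (limma adjusted p = 0.015). Of all genes 3.98% were called in this comparison, 2.91% lower. For early resolution minus peak the Cyp2c70 value was -0.997 ± 0.33 (SE; limma adjusted p = 0.2), and 0 of 9 members and 0% of all genes were called by limma. An unadjusted p under 0.05 was reached by 2 members, and no share of all genes is given at that threshold. The comparisons share their peak libraries. Whether the diet difference depended on the sex label was tested at each stage, and 0 members passed at peak, early or late resolution by limma, against 0.16%, 0.00889% and 0.0445% of all genes. Unadjusted p-values under 0.05 were reached by Cyp2c50 at peak and at early resolution and by Cyp2c37 at late resolution, again without an all-gene share. The Cyp2c37 value at late resolution was -1.68 ± 0.52 (SE; limma adjusted p = 0.26), relative to an all-gene median of -0.14, and that of Cyp2c50 at peak was -0.80 ± 0.35 (SE; limma adjusted p = 0.34), relative to -0.20.

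By sex label, members differed at peak. Cyp2c29, Cyp2c54, Cyp2c37, Cyp2c50 and Cyp2c38 were lower in male-labelled than in female-labelled libraries, 5 of 9 members, and none was higher as deposited. All of these but Cyp2c29 were also called by diet label at peak. Of all genes 51% were called in this comparison, 4.26% higher and 46.7% lower, and the all-gene median was -0.29, so the direction of these 5 is that of most called genes. After median-of-ratios scaling the same 5 were lower, against 15.5% of all genes, and Cyp2c70 was higher, against 16.2%. The members' median was -1.09 as deposited and -0.76 after scaling, where the all-gene median was 0.01. In bulk liver, fewer cells of a type and less RNA per cell cannot be told apart.

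Cyp2c29 ranged over 203 to 488 TPM with a median of 351 in male-labelled libraries and over 842 to 2054 TPM with a median of 1066 in female-labelled ones, without overlap. Its log2 difference was -1.83 ± 0.21 (SE; limma adjusted p = 1.7e-07), and -1.48 after scaling (limma adjusted p = 4.8e-07). Cyp2c50 did not overlap either, with 227 to 552 TPM with a median of 324 in male-labelled and 756 to 1399 TPM with a median of 935 in female-labelled libraries. Its difference was -1.48 ± 0.17 (SE; limma adjusted p = 2.8e-07; -1.13 after scaling). These were the 2 members whose sex-label groups did not overlap, against 4.05% of all genes.

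Cyp2c37, Cyp2c38 and Cyp2c54 differed by diet label too, so they separated only within a diet label. Cyp2c37 had 240.2, 277, 222 and 288 TPM in ethanol-labelled males, all below the 691 TPM of the lowest ethanol-labelled female, and its highest control-labelled male, at 124 TPM, was below the lowest control-labelled female, at 241 TPM. The log2 difference was -1.65 ± 0.24 (SE; limma adjusted p = 5.8e-06; -1.30 after scaling). For Cyp2c38 it was -1.09 ± 0.25 (SE; limma adjusted p = 0.0009; -0.76 after scaling). For Cyp2c54, whose levels by group are given above, it was -1.72 ± 0.42 (SE; limma adjusted p = 0.0015; -1.37 after scaling). Within each diet label 5 members were apart by sex label, the same 5 in both, against 42.3% of all genes in ethanol-labelled and 15.4% in control-labelled libraries. As the male-labelled and female-labelled libraries of one diet label carried the same sex-chromosome transcripts at peak, these differences lie within 1 sex-chromosome state.

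Tested within each diet label, Cyp2c29 differed by -1.60 in ethanol-labelled and -2.06 in control-labelled males relative to the female-labelled libraries of that diet label, on the log2 scale (limma adjusted p = 0.00015 and 5.1e-05). Cyp2c50 differed by -1.88 and -1.08 (limma adjusted p = 3.0e-06 and 0.0099). Cyp2c37 differed by -1.84 and -1.46 (limma adjusted p = 0.00015 and 0.011). In ethanol-labelled libraries 5 members were called lower, against 45.2% of all genes, and in control-labelled ones 4, against 2.54%. The all-gene medians were -0.39 and -0.19, and after scaling the members called lower numbered 4 in ethanol-labelled and 3 in control-labelled libraries, against 15.8% and 1.75% of all genes. The calls lost by scaling were those of Cyp2c38 in ethanol-labelled (limma adjusted p = 0.34) and of Cyp2c50 in control-labelled libraries (limma adjusted p = 0.067). Cyp2c40, Cyp2c69, Cyp2c39 and Cyp2c70 did not pass as deposited. Their differences were 0.13 ± 0.57, 0.32 ± 0.63, -0.27 ± 0.29 and 0.39 ± 0.23 (SE), and the sign of Cyp2c39 turned after scaling, to 0.03. Cyp2c70 was 0.74 after scaling (limma adjusted p = 0.038).

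At early and late resolution 0 of 9 members differed by sex label by limma, against 0.596% and 3.25% of all genes. At an unadjusted p under 0.05 there were 3 members at early and 0 at late resolution, without a share of all genes at that threshold. The sex-label groups overlapped for all 9 at both stages (0.0889% and 0.249% of all genes did not overlap). Cyp2c29 differed by 0.52 ± 0.22 at early resolution (SE; limma adjusted p = 0.3; 95% interval 0.08 to 0.96) and by 0.04 ± 0.23 at late resolution (SE; limma adjusted p = 0.93; 95% interval -0.42 to 0.50). Both intervals lie above the difference at peak. Cyp2c50 differed by 0.52 ± 0.18 (SE; limma adjusted p = 0.19) and 0.15 ± 0.19 (SE; limma adjusted p = 0.64), and Cyp2c37 by -0.07 ± 0.25 (SE; limma adjusted p = 0.93) and 0.05 ± 0.26 (SE; limma adjusted p = 0.93).

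The change of the sex-label difference from peak was tested directly. At early resolution minus peak, the difference was called higher for 6 members, against 29.6% of all genes, and lower for 0, against 2.29% (31.9% either way). The all-gene median of that change was 0.32. Cyp2c29 changed by 2.35 ± 0.30 (SE; limma adjusted p = 6.0e-06; 1.97 after scaling), Cyp2c54 by 2.32 ± 0.61 (SE; limma adjusted p = 0.0064; 1.94 after scaling) and Cyp2c50 by 2.00 ± 0.25 (SE; limma adjusted p = 5.2e-06; 1.62 after scaling). Cyp2c37, Cyp2c38 and Cyp2c39 changed by 1.58, 1.30 and 1.07, and the call of Cyp2c39 was lost after scaling, where 5 members were called against 9.12% of all genes. It was also lost when any of 20 single libraries was left out. At late resolution minus peak 4 members were called higher, Cyp2c54 by 2.53, Cyp2c29 by 1.87, Cyp2c37 by 1.70 and Cyp2c50 by 1.63, and 0 lower, against 34.6% and 1.89% of all genes (36.5% either way) and an all-gene median of 0.34. After scaling the same number was called, against 11.3%. Without late control female 1, Cyp2c38 was called too, at 1.07 (limma adjusted p = 0.012). Peak libraries are shared by these comparisons.

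Of 7 other Cyp2c genes in the table, 4 passed the filter on low values. Cyp2c68, the neighbour of Cyp2c40, was higher with the ethanol label at all 3 stages, by 1.63 ± 0.19, 1.87 ± 0.19 and 1.68 ± 0.20 on the log2 scale (SE; limma adjusted p = 2.1e-08, 3.3e-09 and 1.3e-07), without overlap between the diet groups. At peak it ranged over 214 to 407 TPM with a median of 278 in ethanol-labelled and over 60.5 to 157 TPM with a median of 85.1 in control-labelled libraries. Cyp2c67, 97.7% identical to Cyp2c69, ranged over 77.0 to 143 TPM with a median of 99.3 in ethanol-labelled and over 76.1 to 147 TPM with a median of 127 in control-labelled libraries, with a difference of -0.16 ± 0.16 (SE; limma adjusted p = 0.5). The difference between Cyp2c68 and Cyp2c67 was not itself tested. Cyp2c23, an epoxygenase, and Cyp2c55 did not pass at any stage by diet label. By sex label at peak all 4 were lower as deposited, from -0.75 for Cyp2c55 to -0.41 for Cyp2c67, against 46.7% of all genes. After scaling 1 of 4 was lower, against 15.5%. Cyp2c53-ps was at 0 in 23 libraries, Cyp2c65 in 31 and Cyp2c66 in all 45.

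Profiles over the 12 group means were compared by the root mean square of the log2 difference after centring, among 6182 genes outside the family with a mean of at least 5 TPM, and near genes of each member, at most 2, are named as a description. Cyp2c40, whose group means spanned 7.58 on the log2 scale, lay nearest to Xist (0.55) and the transporter Slc22a26 (0.64). Cyp2c69, spanning 8.80, had A1bg (0.72) among its 2 nearest. Cyp2c29, spanning 2.47, lay nearest to the glutathione transferases Gsta4 (0.21) and Gstm1 (0.25), and Cyp2c37, spanning 3.08, nearest to the P450 genes Cyp3a59 (0.37) and Cyp4a10 (0.41). Cyp2c50 lay nearest to Akr1c19 (0.19) and to the aldehyde oxidase Aox1 (0.32). The nearest profiles to Cyp2c38 were the methyltransferase Inmt (0.21) and the monocarboxylate transporter Slc16a7 (0.26). For Cyp2c39 they were Fmo2 (0.25) and the prolactin receptor Prlr (0.26). Cyp2c54 lay nearest to Etfbkmt (0.45) and the anion transporter Slc22a7 (0.47), and Cyp2c70 to Tagln (0.20) and Tspan9 (0.21). Within the family the closest profiles of members were Cyp2c38 and Cyp2c37 (0.33), and those of Cyp2c54 and Cyp2c50 lay at 0.52 and of Cyp2c40 and Cyp2c69 at 0.61.

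Of the 6 electron donors of P450 enzymes tested, 0 were higher and 1 lower with the ethanol label at peak, against 17.3% and 9.81% of all genes. As deposited 2 were higher at early and 2 at late resolution, against 14.3% and 8.82% of all genes, and after scaling 1 was higher at each, against 7.62% and 8.56%. Por differed by 0.32 ± 0.13 at peak (SE; limma adjusted p = 0.068), 0.68 ± 0.14 at early (limma adjusted p = 0.00074) and 0.42 ± 0.15 at late resolution (limma adjusted p = 0.048). Pgrmc1, a haem-binding partner of P450 enzymes, was the lower one at peak, with a log2 difference of -0.40 ± 0.12 (SE; limma adjusted p = 0.0096). Of 8 other genes of epoxide formation and breakdown, 2 were lower and 0 higher at peak as deposited, against 9.81% and 17.3% of all genes, and 5 were lower and 0 higher after scaling, against 20.7% and 15%. Lower as deposited were the soluble epoxide hydrolase Ephx2, at -0.60 ± 0.09 (SE; limma adjusted p = 5.4e-06), and the epoxygenase Cyp2j6, at -0.39 ± 0.12 (SE; limma adjusted p = 0.014). Ephx2 was also lower at early (-0.28) and late resolution (-0.38). By sex label at peak 7 of these 8 were lower in male-labelled libraries as deposited, against 46.7% of all genes, and 3 after scaling, against 15.5%, with the microsomal epoxide hydrolase Ephx1 at -1.38 ± 0.17 (SE; limma adjusted p = 6.6e-07).

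Among 12 regulators of P450 genes, 1 was higher and 2 lower with the ethanol label at peak as deposited, against 17.3% and 9.81% of all genes. After scaling 1 was higher and 3 lower, against 15% and 20.7%. HNF4 (Hnf4a) was higher by 0.59 ± 0.13 (SE; limma adjusted p = 0.00059), and the bile acid receptor Nr1h4 was among those lower, at -0.42 ± 0.09 (SE; limma adjusted p = 0.00078). CAR (Nr1i3) differed by -0.29 ± 0.23 (SE; limma adjusted p = 0.36) by diet label at peak and was lower in male-labelled libraries, with a log2 difference of -1.02 ± 0.23 (SE; limma adjusted p = 0.00079). Of 17 further targets of CAR and PXR, 7 were higher with the ethanol label at peak, 10 at early and 6 at late resolution, and 0 were lower at any of the 3 as deposited. The all-gene shares were 17.3%, 14.3% and 8.82% higher and 9.81%, 2.46% and 3.98% lower. After scaling 8, 9 and 7 of these targets were higher, against 15%, 7.62% and 8.56% of all genes. At late resolution 1 was lower after scaling, against 12.5%. Medians of the targets were 0.50, 0.81 and 0.37, against all-gene medians of 0.05, 0.13 and 0.05. Cyp2b10, the standard CAR marker, was higher by 1.78 ± 0.51 (SE; limma adjusted p = 0.0085), and Cyp2b13, known as female-biased in mouse, by 7.50 ± 0.71 (SE; limma adjusted p = 2.6e-10). By sex label at peak 12 of the 17 were lower in male-labelled libraries as deposited, against 46.7% of all genes, and 9 after scaling, against 15.5%. Cyp2b10 was at -3.87 ± 0.51 (SE; limma adjusted p = 1.4e-06) and the glutathione transferase Gstm3 at -2.57 ± 0.28 (SE; limma adjusted p = 6.4e-08).

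Of 14 genes of the growth hormone and sex-hormone axis, 6 were higher and 0 lower with the ethanol label at peak as deposited, against 17.3% and 9.81% of all genes. After scaling 5 were higher and 2 lower, against 15% and 20.7%. Cux2, a repressor of male-biased genes that is itself female-biased in mouse liver, was higher by 2.68 ± 0.28, 3.30 ± 0.29 and 3.09 ± 0.30 at the 3 stages (SE; limma adjusted p = 3.0e-09, 7.4e-11 and 1.3e-09). The oestrogen receptor gene Esr1 was higher by 1.34 ± 0.16 at peak (SE; limma adjusted p = 5.1e-08). Among 11 bile acid genes, the company of Cyp2c70, 1 was higher and 3 lower at peak as deposited, against 17.3% and 9.81% of all genes. After scaling 0 were higher and 3 lower, against 15% and 20.7%. Cyp7b1 and Cyp8b1, hydroxylases of bile acid synthesis, differed by -3.43 ± 0.40 and -2.02 ± 0.37 (SE; limma adjusted p = 3.6e-08 and 8.8e-05), and Cyp7b1 is known to be male-biased in mouse liver.

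Markers of cell types that share the lysate moved with the labels beside the Cyp2c genes. Hepatocyte markers, the most abundant of the marker lists, summed at peak to 203013 to 229403 TPM (median 213003) in ethanol-labelled and 167356 to 199996 TPM (median 181767) in control-labelled libraries, and to 167356 to 226282 TPM (median 198005) in male-labelled and 174415 to 229403 TPM (median 203601) in female-labelled ones. At peak 10 of 10 endothelial and 8 of 10 stellate cell markers were higher with the ethanol label, against 17.3% of all genes as deposited. Endothelial markers summed to 91.9 to 289 TPM (median 218) in ethanol-labelled and 60.4 to 217 TPM (median 125) in control-labelled libraries. By sex label at peak 9 of the 10 endothelial markers were lower in male-labelled libraries as deposited, against 46.7% of all genes, and 4 after scaling, against 15.5%. Of 13 markers of hepatocytes around the central vein, 6 were lower in male-labelled libraries as deposited, a share near the 46.7% of all genes. After scaling 3 were higher and 5 lower, against 16.2% and 15.5%. Neutrophil markers went the other way, with 4 of 5 tested higher in male-labelled libraries, against 4.26% of all genes as deposited. Their sums were 29.8 to 153 TPM (median 88.2) in male-labelled and 4.40 to 67.8 TPM (median 43.3) in female-labelled libraries. At early resolution 9 of 11 macrophage markers (6 after scaling) were higher with the ethanol label, against 14.3% of all genes (7.62% after scaling). At late resolution 8 of 8 lymphocyte markers were higher with that label, against 8.82% of all genes as deposited. Of the 8 neutrophil markers 5, and of the 8 bile duct markers 2, were at 0 in some library. The part of these cells in the Cyp2c differences was not tested.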

How the data were processed

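Bulk RNA sequencing of liver lysate gave 45 libraries. Per the labels' protocols, a spin kit gave the RNA and a stranded mRNA kit the libraries. The genome build is named as mm10 in the submitters' processing notes. Which aligner and counter were used, and how reads shared between copies were treated, is not given in the sources used here. What the authors deposited is TPM, in 1 table of 24972 genes whose columns each sum to between 999999 and 1000001, so depth and counting precision are unknown. TPM is divided by transcript length and closed to a fixed total, so a change in a few abundant genes moves the others.

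Here, 26 entries with calendar-date names (0.044% of TPM) were left out, which left 24946 genes. Genes averaging 0.5 TPM or more (11244, with 99.9% of TPM) were taken as log2(TPM + 0.5) and fitted with limma 3.58.1 in R 4.3.3, with 12 group means, a variance trend, 33 residual and 3.77 prior degrees of freedom and Benjamini-Hochberg adjustment over all genes. All 9 members passed this filter. Diet differences are ethanol-labelled minus control-labelled averaged over the sex labels, and sex differences male-labelled minus female-labelled averaged over the diet labels. A library counts in the direction of a difference relative to the mean of the other label. Scaled values are those of this fit on TPM divided by median-of-ratios size factors. The script was tested on simulated data. The alternatives tried are given in the closing section.

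Members, lists, comparisons and alternatives were chosen with earlier results of these data known. All 9 members and the other Cyp2c genes could be named, as well as, from each list, the 2 genes with the smallest p by diet label and by sex label at peak, and Por, Nr1i3, Esr1 and Nr1h4. A few results that this rule would name are not reported here. Coordinates and transcripts are from GENCODE M21, promoters from RefSeq (GRCm38.p6). Tables and sequence comparisons were made with Biopython 1.88, pandas 2.3.3, numpy 2.4.6 and scipy 1.17.1 under Python 3.11.15, and figures with matplotlib 3.10.9.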

Additional observations from a re-analysis of the deposited data

Results flagged for a closer look

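In 81 sets of 4 libraries (9 groups by 9 members), 5 had a highest or lowest library far from the rest by Dixon's criterion, which chance gives in about 1 of 20 sets. They fall in 3 libraries, all labelled control female. Late control female 1 had 266 TPM of Cyp2c40, against 0.943 to 2.58 TPM in the other libraries of its group, and 219 TPM of Cyp2c69, against 0.798 to 1.19 TPM. Peak control female 2 had 6.90 TPM of Cyp2c40, against 0.588 to 1.57 TPM, and 8.18 TPM of Cyp2c69, against 0.188 to 0.461 TPM. Early control female 4 had 2.38 TPM of Cyp2c39, against 1.06 to 1.25 TPM. Late control female 1 is also the control library with Xist and no Y-linked transcript.

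The male-labelled minus female-labelled difference was higher at early resolution than at peak by 2.35 for Cyp2c29, 1.58 for Cyp2c37, 1.30 for Cyp2c38, 1.07 for Cyp2c39, 2.00 for Cyp2c50 and 2.32 for Cyp2c54 on the log2 scale (limma, adjusted p from 5.2e-06 to 0.044). In that comparison 29.6% of all genes were called higher, and the all-gene median was 0.32. The call of Cyp2c39 was lost after median-of-ratios scaling. At late resolution the same difference was higher than at peak by 1.87 for Cyp2c29, 1.70 for Cyp2c37, 1.63 for Cyp2c50 and 2.53 for Cyp2c54 (limma, adjusted p from 0.00014 to 0.0034). Here 34.6% of all genes were called higher, and the all-gene median was 0.34. The ethanol-labelled minus control-labelled difference of Cyp2c70 was -1.23 at late resolution relative to peak (limma, adjusted p = 0.032). That call was lost when any of 9 libraries was left out, and 2.91% of all genes were called lower there. The cause of these changes was not tested.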

How the results depend on the processing

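Each result was computed again with a pseudocount of 0.1 or 2, without filter, with only genes of mean 5 TPM or more, with quantile normalization, median-of-ratios scaling, no or a robust variance trend, a stage's libraries by themselves, replicate numbers as a block, and every library omitted in turn. The number of members higher with the ethanol label stayed at 6 at peak and early resolution, and that of members lower in male-labelled libraries at 5 at peak, under all of these. Causes were not tested.

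Members lower with the ethanol label at peak (2) were 1 without filter and with the replicate block. At early resolution (1) they were 2 after quantile normalization or median-of-ratios scaling and 0 with the block (Cyp2c54, limma adjusted p = 0.075). Members higher in male-labelled libraries at peak (0) were 1 after median-of-ratios scaling and in the stage alone. Members with a lower diet difference at late resolution than at peak (1, Cyp2c70) were 0 without filter and with the block (limma adjusted p = 0.12).

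All genes called by diet label (3049, 1880 and 1440 at peak, early and late resolution) were 1617, 1075 and 914 at a mean of at least 5 TPM. At late resolution they were 2423 after quantile normalization, 2374 after median-of-ratios scaling, 765 in the stage alone and 581 with the block. By sex label (5729, 67 and 365) they were 3213 at peak and 218 at late resolution at a mean of at least 5 TPM, 3356, 243 and 1213 after quantile normalization and 3554, 207 and 1074 after median-of-ratios scaling. In the stage alone they were 15 at early and 76 at late resolution, and with the block 26 and 128.

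Signs turned for members that were never called there. Cyp2c70 by diet label at early resolution was -0.082 after quantile normalization and -0.086 after median-of-ratios scaling, and at late resolution 0.16 with the block. Cyp2c39 by sex label at peak was 0.042 and 0.026 after these scalings, and by sex label at late resolution Cyp2c29 was -0.015 and Cyp2c37 -0.0086 after median-of-ratios scaling.

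With single libraries left out, genes called by diet label at early resolution numbered 1123 (without early ethanol female 2) to 3019 (without early ethanol female 1), and those by sex label 16 to 205 at early and 25 to 1853 at late resolution. Members lower by diet label ranged from 1 to 2 at peak, 0 to 2 at early and 0 to 1 at late resolution. Members with a higher diet difference at early resolution than at peak ranged from 0 to 1, with a lower one at late resolution than at peak from 0 to 1. Members higher by sex label at early resolution ranged from 0 to 1 (Cyp2c39 at 1.09 without early ethanol female 3, limma adjusted p = 0.045), and members whose sex difference was lower at early resolution than at peak from 0 to 1. Cyp2c70 by diet label ranged from -0.025 to 0.26 at early and from -0.31 to 0.068 at late resolution. By sex label, Cyp2c40 at peak ranged from -0.022 to 0.44, and Cyp2c37 at early resolution from -0.23 to 0.093. At late resolution Cyp2c29 ranged from -0.057 to 0.13, Cyp2c37 from -0.11 to 0.29, Cyp2c39 from -0.12 to 0.38, Cyp2c40 from -1.06 to 0.19, Cyp2c50 from -0.061 to 0.29 and Cyp2c70 from -0.074 to 0.30.

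Replicate numbers did not pair the libraries as a whole, though all 4 pairs of ethanol-labelled and control-labelled females at peak correlated, at 0.11 to 0.22, each best with its own number. Correlations of same-numbered deviations were -0.37 to 0.25 over 21 diet pairs, of which 6 correlated best with their own number, and -0.43 to 0.53 over 22 sex-label pairs, of which 7 did. The block left out 3 and 1 libraries without a partner. Depth is unknown, and values of near-identical copies are uncertain.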
